A study of Mus musculus with 10 samples.

Results

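The nucleolar ribosome biogenesis factors described here are 54 genes whose proteins make, fold, modify and cut ribosomal RNA and assemble it with ribosomal proteins. They were listed by name from their known role in ribosome assembly, and all 54 were found among the 45321 genes of the files and among the 14417 genes with enough counts to be tested. A ribosome is built in the nucleolus, where RNA polymerase I transcribes a long precursor RNA. Small nucleolar ribonucleoproteins (snoRNPs), which are guide RNAs with a fixed set of proteins, modify that precursor, and a large assembly called the small subunit processome folds and cuts it, after which the small and the large subunit mature on separate paths. A resting T cell makes few ribosomes, and enlargement of the nucleolus is a classical sign of T cell activation.

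RNA was sequenced from naive CD4 T cells, sorted as CD4+CD62L+CD69- cells from spleens of C57BL/6 mice. The cells were held for 1 h with 12.5 µM Compound 10, described by the submitters as an inhibitor of the NFAT:AP-1 transcription factor complex, or with its solvent DMSO (vehicle), at this single dose. They then stayed unstimulated or received PMA (10 nM) together with ionomycin (1 µM) over 2 h, which bypass the T cell receptor by activating protein kinase C and by raising calcium. Group sizes were unstimulated vehicle cells (n = 3), unstimulated Compound 10 cells (n = 2), stimulated vehicle cells (n = 2) and stimulated Compound 10 cells (n = 3). Whether replicates are separate mice or cultures is not in the labels. The p-values therefore reflect the scatter of these libraries alone, and that scatter may be technical.

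The libraries held 10640381 to 33261695 counts matched to genes. The deposited tables carry a sample number each, in runs of 13 to 16, 19 to 22 and 25 to 29, which the labels do not explain, and the unstimulated libraries of the last run, vehicle replicate 3 and Compound 10 replicate 2, were the deepest (27691096 and 33261695 counts) and deviated from their groups in a shared direction (r = 0.397 over genes). The 12 T cell identity markers summed to 1976 to 2240 CPM (counts per library of a fixed size, with the scaling given below) in unstimulated vehicle, 2597 and 2599 in unstimulated Compound 10, 4661 and 5075 in stimulated vehicle and 3574 to 4234 in stimulated Compound 10 cells. Of these 12 markers, 8 were called for stimulation under vehicle in either direction, where 19.5% of all genes tested rose and 19.4% fell. With Compound 10 in stimulated cells 4 were lower, against 12.8% of all genes tested. The other lists reached at most 10.2 for the B cell list, 7.45 for the myeloid list, 15.8 for the NK cell list (1.78 to 3.87 in unstimulated vehicle and 8.37 to 15.8 in stimulated vehicle cells) and 10.6 for the CD8 list, with Mpeg1, S100a8, S100a9, Klra8 and Ncr1 under 0.1 CPM throughout. The regulatory T cell list, which holds the activation-induced genes Il2ra and Ctla4, summed to 40.8 to 60.3 CPM in unstimulated, 212 to 252 in stimulated vehicle and 87.0 to 117 in stimulated Compound 10 cells. The part of such cells in the results below was not tested. In bulk RNA, fewer cells of a type and less RNA per cell cannot be told apart.

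Stimulation under vehicle raised 43 of the 54 genes and lowered none by edgeR's quasi-likelihood test (adjusted p under 0.05), in a comparison where 19.5% of all genes tested rose and 19.4% fell. The median log2 fold change of the 54 was 1.2, against -0.06 for all genes tested. At an unadjusted p under 0.05 the counts were 46 higher and 0 lower, and DESeq2 called 46 higher and 0 lower. On log2(TPM + 1), without TMM scaling, limma called 25 higher and 4 lower. Of all genes tested limma called 7121, and 17.3% of those called were higher. In 48 of the 54 genes both stimulated vehicle libraries lay above all 3 unstimulated vehicle libraries, an order found in 30.2% of all genes tested. In scaled CPM the 54 genes summed to 5921, 5677 and 6143 in unstimulated vehicle cells and to 14858 and 14725 in stimulated vehicle cells. As an unscaled share of the matched counts they held 0.756%, 0.761% and 0.773%, against 1.08% and 1.15%, so the groups were apart on both scales and farther apart with the scaling.

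With Compound 10, stimulation raised 10 of the 54 (12.8% of all genes tested rose) and lowered 6 (13.7% fell), with a median of 0.17 against -0.01 for all genes. Of the 43 genes that rose under vehicle, 10 also rose with the compound, 3 fell and 30 were not called. The same split was not counted for all genes that rose under vehicle, so whether it is particular to these genes was not tested. The summed level was 6152 and 6830 scaled CPM in unstimulated and 9279, 8715 and 9764 in stimulated Compound 10 cells, with the stimulated libraries above the unstimulated ones. As an unscaled share of counts the same libraries held 0.771% and 0.818%, and 0.725%, 0.74% and 0.792%, so that order did not hold without the scaling. On both scales the stimulated Compound 10 libraries lay below both stimulated vehicle libraries.

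Compared directly in stimulated cells, Compound 10 lowered 43 of the 54 and raised none, where 12.8% of all genes tested were lower and 10.4% higher. The median difference was -1.10, against 0.04 for all genes, and 30 of the 43 were at least 2-fold lower. At an unadjusted p under 0.05 the counts were 45 lower and 0 higher, and DESeq2 called 45 lower and 0 higher. In 47 of the 54 genes all 3 Compound 10 libraries lay below both vehicle libraries, which held for 27.3% of all genes tested. The count was 37 without the first and 35 without the second stimulated vehicle library. Within the sample numbers 13 to 16 Compound 10 minus vehicle was below 0 for 49 of the 54 (median -1.21), and within 19 to 22 for 52 (median -1.09). Each such value is 1 library minus 1 library, from the libraries that also gave the calls. The share of all genes below 0 was not counted within these runs. In the fit of all libraries 6883 of the 14417 genes tested were below 0. The comparison of Compound 10 and vehicle in stimulated cells shares its vehicle libraries with stimulation under vehicle and its Compound 10 libraries with stimulation with Compound 10. The values are therefore given side by side and not correlated.

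The libraries were scaled by the trimmed mean of M values (TMM), which places the median gene near 0. Scaling by library totals alone moved the median of all genes to -0.83 for stimulation under vehicle, -0.60 for stimulation with Compound 10 and 0.15 for Compound 10 in stimulated cells, and left the median of the 54 above or below the median gene by 1.25, 0.18 and -1.14. On that scale stimulation under vehicle raised 27 and lowered 5 of the 54 (Rrn3, Wdr3, Bms1, Emg1 and Wdr12). It called 7812 of the 14417 genes tested, and 15.4% of those called were higher. Stimulation with Compound 10 raised 8 and lowered 23 of the 54, where 6029 of all genes were called and 13.4% of those were higher. Compound 10 in stimulated cells lowered 37 of the 54 and raised none, where 3356 of all genes were called. The 16 rises under vehicle that were not called on that scale were those of Mybbp1a, Lyar, Nop56, Dkc1, Gar1, Wdr43, Heatr1, Utp4, Utp15, Wdr36, Mphosph10, Imp3, Pno1, Bop1, Pes1 and Wdr74. With Compound 10 the rises of Nop58 and Tsr1 were not called on it. By limma on log2(TPM + 1), among the genes described with every library's value, the rises under vehicle of Mybbp1a, Nop56, Dkc1, Gar1, Wdr75, Nop2 and Bop1 were not called, nor were those of Npm1, Nop58 and Rrs1 with Compound 10. Each rise below is thus a rise relative to the median gene. Of all genes called for Compound 10 in stimulated cells, 44.8% were higher with TMM, 57.8% with upper-quartile factors and 54.6% with library totals.

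**Figure D1:**
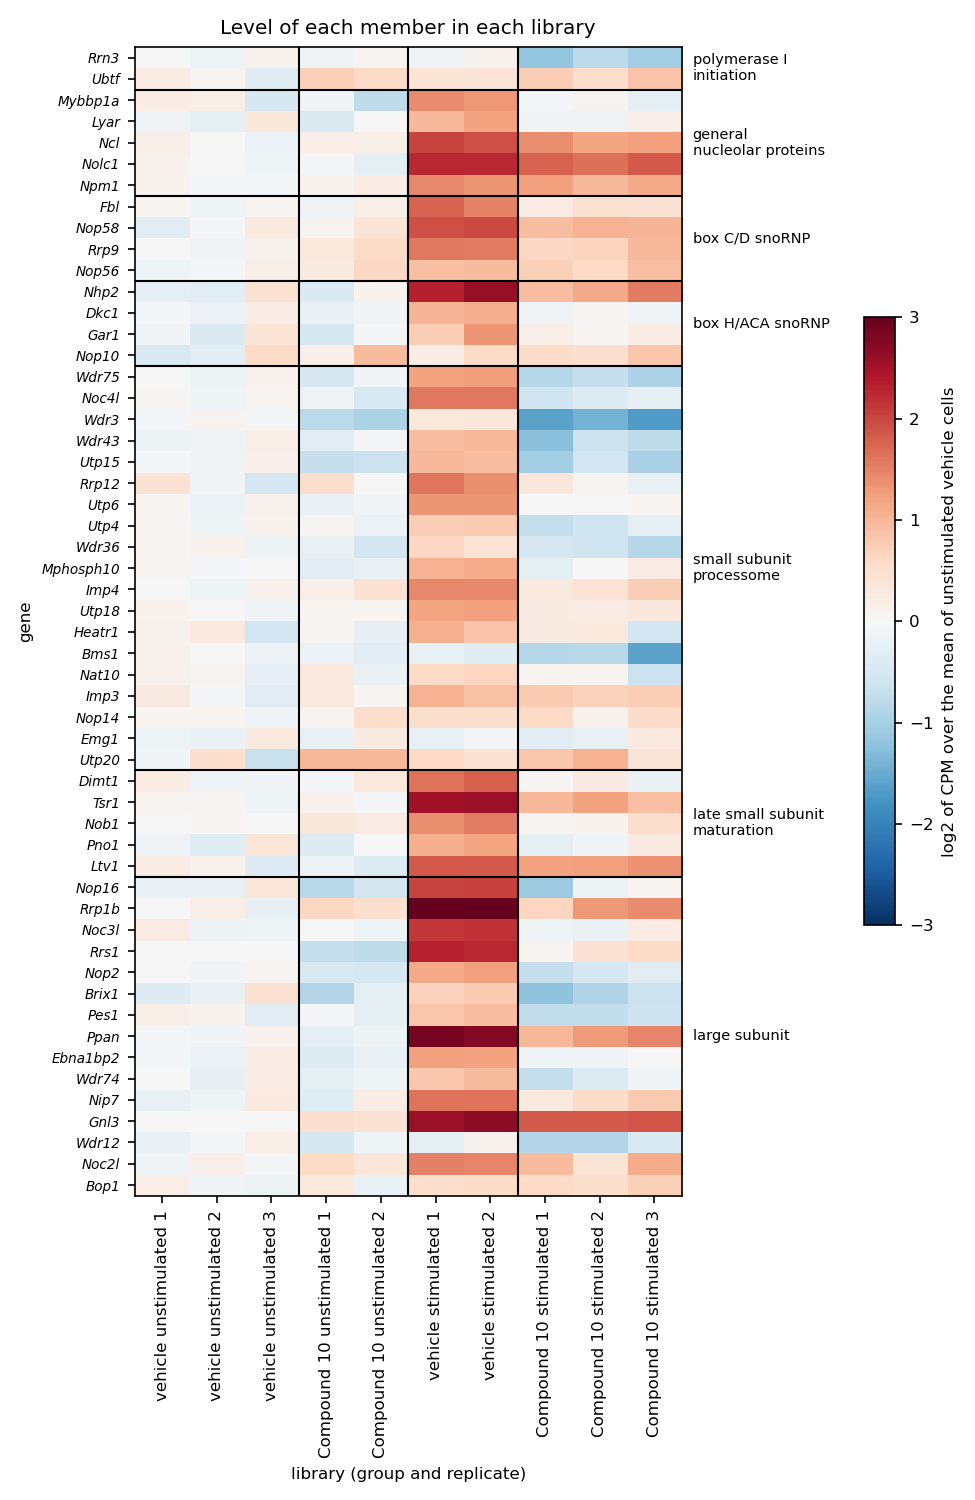
Level of each of the 54 genes (rows, grouped by step) in each of the 10 libraries (columns, grouped by treatment), as the log2 of its CPM over the mean of the 3 unstimulated vehicle libraries, with red above and blue below that mean. Both stimulated vehicle libraries are red in most rows, and the 3 stimulated Compound 10 libraries are pale or blue in most rows of the small subunit processome and red for Nolc1, Ltv1, Gnl3 and Ppan.

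Promoter sequences are shown because most of these genes moved together. RefSeq promoters (GRCm38.p6, 250 bases before to 50 bases after the transcription start) were matched for 47 of the 54 genes. The E-box CACGTG, the sequence to which Myc and its partner Max bind, was found in at least 1 promoter of 12 of the 47 (25.5%), against 12.0% of the protein-coding genes tested and 7.2% of all promoters in the table. The same search on both strands found the AP-1 site TGANTCA in 0 of 47, against 5.9% of the protein-coding genes tested and 7.8% of all promoters, and the NFAT core GGAAA in 30 of 47 (63.8%), against 63.4% and 61.3%. The 12 genes with an E-box had a median of 1.16 for stimulation under vehicle and -1.22 for Compound 10 in stimulated cells, and the 35 without had 1.09 and -1.06. A match in these windows is a description of the sequence and shows no binding. The windows below hold the E-box in capitals and lie outside annotated exons, upstream of Nop2 (chr6:125131796-125131855, plus strand, E-box starting 60 bases before the transcription start), Rrn3 (chr16:13780457-13780516 and chr16:13780624-13780683, plus strand, 215 and 48 bases before) and Utp18 (chr11:93885767-93885813, minus strand, 20 bases before), and they show the motif ahead of a gene that rose with stimulation (Nop2, Utp18) and of a gene that did not (Rrn3).
Nop2: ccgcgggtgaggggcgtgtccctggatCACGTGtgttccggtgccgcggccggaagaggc
Rrn3, distal: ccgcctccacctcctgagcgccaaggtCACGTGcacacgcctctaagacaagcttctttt
Rrn3, proximal: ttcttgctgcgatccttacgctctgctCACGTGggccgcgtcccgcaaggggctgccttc
Utp18: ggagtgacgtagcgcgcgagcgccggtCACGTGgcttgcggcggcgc

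The step of polymerase I initiation was represented by 2 genes, and neither was called higher with stimulation. Rrn3 (ENSMUSG00000022682.8, chr16:13780708-13814839), which couples polymerase I to the ribosomal DNA promoter, was at 119.7, 108 and 126 CPM in unstimulated vehicle, 110.2 and 124 in unstimulated Compound 10, 109 and 126 in stimulated vehicle and 52.7, 68.7 and 57.1 in stimulated Compound 10 cells. Only the last group stood apart, with all 3 libraries below every other library. The difference of Compound 10 and vehicle in stimulated cells was -0.98 ± 0.16 (log2 ± SE, edgeR adjusted p = 0.00128), and stimulation with Compound 10 lowered Rrn3 by a similar amount (-0.97 ± 0.16, edgeR adjusted p = 0.0011). Stimulation under vehicle gave 0.00 ± 0.16 (edgeR adjusted p = 0.996) with TMM and -0.77 (edgeR adjusted p = 0.00345) with library totals. Ubtf, the architectural protein of ribosomal DNA chromatin, was at 66.6, 60.0 and 44.6 CPM, 94.3 and 85.4 CPM, 75.3 and 74.8 CPM, and 94.7, 82.0 and 104 CPM in the same order of groups. Its stimulated Compound 10 libraries lay above the stimulated vehicle libraries, by 0.32 ± 0.19 (edgeR adjusted p = 0.258). For Ubtf, stimulation under vehicle gave 0.40 ± 0.18 (edgeR adjusted p = 0.112).

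Of the general nucleolar proteins, all 5 rose with stimulation under vehicle, 3 rose with Compound 10 present, and 4 were lower with the compound in stimulated cells. The shares of all genes tested were 19.5%, 12.8% and 12.8%. Ncl, nucleolin, which binds nascent ribosomal RNA, was at 714, 653 and 576 CPM in unstimulated vehicle, 746 and 730.1 in unstimulated Compound 10, 2617 and 2469 in stimulated vehicle and 1709.9, 1477 and 1509.6 in stimulated Compound 10 cells. The groups did not overlap, and the stimulated Compound 10 libraries lay between the unstimulated and the stimulated vehicle libraries. Stimulation raised Ncl 3.93-fold under vehicle (log2 1.97 ± 0.14, edgeR adjusted p = 1.2e-06) and 2.12-fold with Compound 10 (1.08 ± 0.15, edgeR adjusted p = 0.000318). On protein-coding transcripts alone, the rise with Compound 10 was 0.46 and no longer called (edgeR adjusted p = 0.0629).

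Npm1, nucleophosmin, an RNA chaperone of the outer nucleolus, kept most of its rise. It was at 996, 879 and 887 CPM in unstimulated vehicle, 994 and 1083 in unstimulated Compound 10, 2496 and 2295 in stimulated vehicle and 2168, 1802 and 2029 in stimulated Compound 10 cells. All stimulated libraries lay above all unstimulated libraries, and the difference of Compound 10 and vehicle in stimulated cells, -0.26 ± 0.14, did not pass the test (edgeR adjusted p = 0.204). Nolc1, a chaperone of snoRNPs, rose 4.79-fold under vehicle and 3.74-fold with Compound 10. The difference between the treatments in stimulated cells was -0.51 ± 0.14 (edgeR adjusted p = 0.0249) and was not called in the fits without either stimulated vehicle library or without the first or the second stimulated Compound 10 library (largest edgeR adjusted p = 0.142), nor with upper-quartile factors (0.0703) or library totals (0.0834).

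Mybbp1a and Lyar lay at unstimulated levels in stimulated Compound 10 cells. Mybbp1a, a nucleolar protein that binds Myb, was at 115, 111 and 70.6 CPM in unstimulated vehicle, 93.2 and 58.0 in unstimulated Compound 10, 266 and 243 in stimulated vehicle and 95.6, 104 and 80.2 in stimulated Compound 10 cells. Lyar, a zinc finger protein of early ribosomal RNA processing, was at 38.8, 34.3 and 52.8 CPM, 31.1 and 41.9 CPM, 81.6 and 96.5 CPM, and 39.7, 38.8 and 46.9 CPM in the same order. In both genes the stimulated Compound 10 libraries overlapped the unstimulated libraries and lay below both stimulated vehicle libraries. The stimulation effect with Compound 10 minus that under vehicle was not called for either gene. It was -1.06 ± 0.34 for Mybbp1a (edgeR adjusted p = 0.0913) and -0.89 ± 0.30 for Lyar (edgeR adjusted p = 0.104). The difference of Compound 10 and vehicle in stimulated cells was -1.45 ± 0.24 for Mybbp1a (edgeR adjusted p = 0.00148). It was -1.09 ± 0.21 for Lyar (edgeR adjusted p = 0.00361, and 0.0516 without the second stimulated vehicle library).

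**Figure D2:**
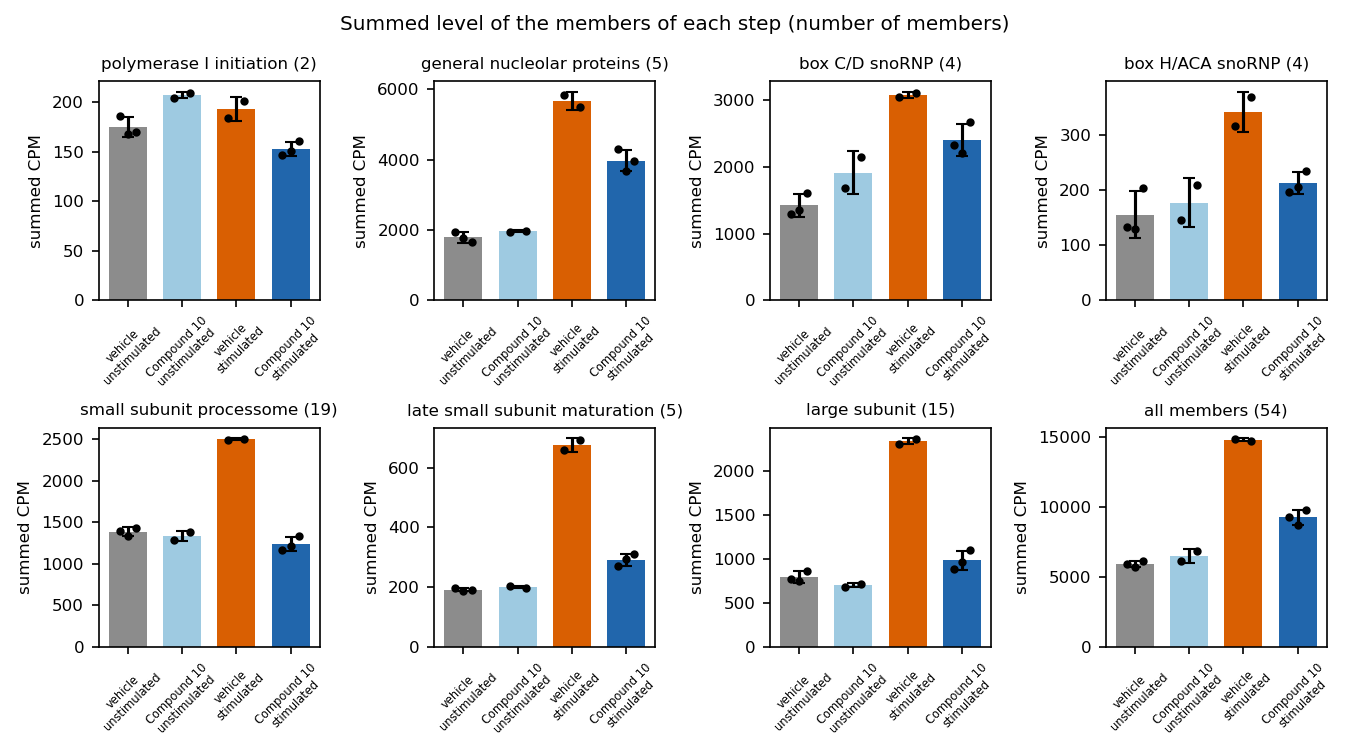
Summed CPM of the genes of each step (panels, with the number of genes) by group, where bars are means, error bars are SD and points are libraries. The stimulated Compound 10 bars fall between the unstimulated and the stimulated vehicle bars in most panels, and for the small subunit processome (1161 to 1332 CPM) they reach only the lowest of the unstimulated vehicle libraries (1329 to 1435 CPM).

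Box C/D snoRNPs place methyl groups on ribosomal RNA, and their U3 member also helps to cut it. All 4 of their proteins on the list rose with stimulation under vehicle (19.5% of all genes tested), and 3 were lower with Compound 10 in stimulated cells (12.8%). Fbl, the methyltransferase fibrillarin, was at 42.6, 37.6 and 43.2 CPM in unstimulated vehicle, 37.9 and 46.5 in unstimulated Compound 10, 139.6 and 115 in stimulated vehicle and 48.8, 56.1 and 55.1 in stimulated Compound 10 cells. The 3 stimulated Compound 10 libraries lay just above the unstimulated libraries and below both stimulated vehicle libraries. Stimulation raised Fbl by 1.63 ± 0.16 under vehicle (edgeR adjusted p = 1.65e-05), and the difference with Compound 10 in stimulated cells was -1.26 ± 0.16 (edgeR adjusted p = 0.000326).

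Nop58, a core protein of the same particles, was at 88.7, 111 and 138 CPM in unstimulated vehicle, 120.2 and 148 in unstimulated Compound 10, 433 and 444 in stimulated vehicle and 215, 233 and 230.2 in stimulated Compound 10 cells. It rose with stimulation also with Compound 10 present (0.75 ± 0.19, edgeR adjusted p = 0.0117, and 0.0926 without the first unstimulated Compound 10 library). Rrp9, a protein specific to U3, was at 86.3, 80.6 and 93.5 CPM, 108 and 129 CPM, 261 and 256 CPM, and 134, 138 and 169.8 CPM in the same order of groups. In Nop58 and Rrp9 the stimulated Compound 10 libraries lay above the unstimulated libraries and below the stimulated vehicle libraries, by -0.96 ± 0.18 for Nop58 (edgeR adjusted p = 0.00286) and -0.81 ± 0.15 for Rrp9 (edgeR adjusted p = 0.00318).

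Nop56, the partner of Nop58 in the particle, behaved differently in the counts. It was at 1074, 1129.8 and 1339.9 CPM in unstimulated vehicle, 1417 and 1819 in unstimulated Compound 10, 2209 and 2295 in stimulated vehicle and 1935, 1780.5 and 2213 in stimulated Compound 10 cells. The highest stimulated Compound 10 library exceeded the lower stimulated vehicle library, and the difference was -0.19 ± 0.16 (edgeR adjusted p = 0.456). Its rise under vehicle, 0.93 ± 0.16 (edgeR adjusted p = 0.000821), was 0.54 and not called on protein-coding transcripts alone (edgeR adjusted p = 0.059). Transcripts annotated as retained introns held 20.6% to 32.4% of its counts in unstimulated libraries, 44.4% and 42.3% in stimulated vehicle and 34.2% to 37.2% in stimulated Compound 10 libraries.

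Box H/ACA snoRNPs convert uridine to pseudouridine, and the same core proteins also belong to telomerase. Of the 4 genes, 3 rose with stimulation under vehicle (19.5% of all genes tested) and 2 were lower with Compound 10 in stimulated cells (12.8%). Dkc1, the pseudouridine synthase dyskerin, was at 68.4, 63.2 and 83.6 CPM in unstimulated vehicle, 62.1 and 67.7 in unstimulated Compound 10, 146 and 152 in stimulated vehicle and 66.9, 73.9 and 66.2 in stimulated Compound 10 cells. All libraries except the stimulated vehicle pair shared 1 range, and the difference of Compound 10 and vehicle in stimulated cells was -1.11 ± 0.15 (edgeR adjusted p = 0.0005).

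Nhp2 was at 15.2, 14.9 and 25.4 CPM in unstimulated vehicle, 13.8 and 20 in unstimulated Compound 10, 92.8 and 113 in stimulated vehicle and 34.9, 41.0 and 54.4 in stimulated Compound 10 cells. It rose 5.54-fold under vehicle (2.47 ± 0.28, edgeR adjusted p = 3.96e-05) and 2.56-fold with Compound 10 (1.36 ± 0.29, edgeR adjusted p = 0.00542, and 0.161 on protein-coding transcripts alone). The difference between the treatments, -1.24 ± 0.27, was called with all libraries (edgeR adjusted p = 0.0069) and not without the second stimulated vehicle library (0.0751). The remaining core proteins, Gar1 and Nop10, had smaller or less certain differences.

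Gar1 was at 5.26, 4.15 and 7.37 CPM in unstimulated vehicle, 4.02 and 5.40 in unstimulated Compound 10, 9.27 and 13.9 in stimulated vehicle and 6.41, 5.83 and 6.55 in stimulated Compound 10 cells. The stimulated vehicle libraries were the highest. Its rise under vehicle, 1.05 ± 0.30 (edgeR adjusted p = 0.0164), was not called without the second unstimulated or the second stimulated vehicle library (largest edgeR adjusted p = 0.21), and its difference with Compound 10, -0.90 ± 0.31, did not pass (edgeR adjusted p = 0.0564). Nop10 was at 43.7, 47.8 and 88.8 CPM, 67.2 and 116 CPM, 70.0 and 90.8 CPM, and 88.3, 85.9 and 107 CPM in the same order of groups. Its groups overlapped throughout, with the deep unstimulated libraries at 88.8 and 116 CPM, and it passed in no comparison.

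The small subunit processome was the largest step, with 19 genes. Stimulation under vehicle raised 13 of them (median 0.96), where 19.5% of all genes tested rose. With Compound 10 present 4 fell, where 13.7% of all genes tested fell, and the others were not called. In stimulated cells 15 were lower with the compound (median -1.07), where 12.8% of all genes tested were lower. With library totals the counts were 6 raised and 3 lowered for stimulation under vehicle and 13 lowered for stimulation with Compound 10. Among all genes called with library totals in these comparisons, 15.4% and 13.4% were higher. Per transcript length, as TPM, which count transcripts scaled to a fixed total and carry no TMM scaling, the 19 genes summed to 1385, 1399.9 and 1291 TPM in unstimulated vehicle, 1257 and 1218 in unstimulated Compound 10, 1404 and 1448 in stimulated vehicle and 759, 896 and 964 in stimulated Compound 10 cells. On that scale the stimulated Compound 10 libraries were below all others, and the lower stimulated vehicle library exceeded the highest unstimulated vehicle library by less than the range among the latter.

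The UTP-A complex is the first part of the processome to bind the precursor and is tied to polymerase I transcription. All 5 of its genes on the list (Wdr43, Wdr75, Heatr1, Utp4 and Utp15) rose under vehicle and all 5 were lower with Compound 10 in stimulated cells. Wdr75 was at 37.4, 33.2 and 40.5 CPM in unstimulated vehicle, 26.5 and 35.2 in unstimulated Compound 10, 86.0 and 87.9 in stimulated vehicle and 20.5, 22.8 and 19.5 in stimulated Compound 10 cells. Both stimulated vehicle libraries were the highest of all, and the 3 stimulated Compound 10 libraries were the lowest of all.

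Compound 10 lowered Wdr75 4.15-fold in stimulated cells (log2 -2.05 ± 0.18, edgeR adjusted p = 5.1e-05). Stimulation raised it under vehicle (1.23 ± 0.17, edgeR adjusted p = 0.000197, and 0.43 with adjusted p = 0.119 by limma on log2(TPM + 1)) and lowered it with Compound 10 (-0.56 ± 0.18, edgeR adjusted p = 0.0347). That fall was not called in 6 of 10 fits without a library, namely without the second unstimulated Compound 10 library or any 1 of the 5 stimulated libraries (largest edgeR adjusted p = 0.292), nor with upper-quartile factors (0.0704) or in a fit of only the groups compared (0.0701). Wdr43 showed the same pair of directions, at 0.97 ± 0.19 under vehicle (edgeR adjusted p = 0.00216) and -0.69 ± 0.20 with Compound 10 (edgeR adjusted p = 0.0231, and at most 0.161 without the second unstimulated or the first stimulated Compound 10 library). Heatr1 was the least certain of the 5, at -0.90 ± 0.29 for Compound 10 in stimulated cells (edgeR adjusted p = 0.0468). It was called in 3 of the 10 fits that each left out a library, and lost in the fits without either stimulated vehicle library, any stimulated Compound 10 library or the first unstimulated library of each treatment (largest edgeR adjusted p = 0.229). It was also lost with upper-quartile factors (edgeR adjusted p = 0.0842) and with library totals (0.0906).

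The UTP-B complex follows UTP-A onto the precursor and brings in U3. Of its 4 genes here (Wdr3, Wdr36, Utp6 and Utp18), 3 rose under vehicle and all 4 were lower with Compound 10 in stimulated cells. Wdr3, the exception, was at 59.2, 64.2 and 58.1 CPM in unstimulated vehicle, 34.3 and 31.4 in unstimulated Compound 10, 75.1 and 76.9 in stimulated vehicle and 20, 22.6 and 18.6 in stimulated Compound 10 cells. The 4 groups did not overlap, in the order stimulated vehicle, unstimulated vehicle, unstimulated Compound 10 and stimulated Compound 10.

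Stimulation under vehicle gave 0.33 ± 0.15 for Wdr3 (edgeR adjusted p = 0.109) with TMM and -0.45 (edgeR adjusted p = 0.0466) with library totals. Compound 10 lowered it in stimulated cells by -1.90 ± 0.15 (edgeR adjusted p = 4.17e-05). It was also lower in unstimulated cells (-0.88 ± 0.16, edgeR adjusted p = 0.00815, and 0.0783 without the second unstimulated Compound 10 library). Wdr36 rose least of the others, by 0.51 ± 0.18 (edgeR adjusted p = 0.0406), and was at -0.27 with library totals. Its rise was not called in the 6 fits without any 1 of the 5 vehicle libraries or the second stimulated Compound 10 library (largest edgeR adjusted p = 0.276).

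Among the remaining processome genes the pattern was uneven. The Mpp10 complex (Mphosph10, Imp3 and Imp4), which holds U3 on the precursor, rose under vehicle in 3 of 3 genes and was lower with Compound 10 in 2, with Imp3 at -0.23 ± 0.18 (edgeR adjusted p = 0.419). Noc4l, an assembly factor that pairs with Nop14, was at 64.6, 57.4 and 66.9 CPM in unstimulated vehicle, 58.7 and 46.1 in unstimulated Compound 10, 189 and 189 in stimulated vehicle and 41.8, 47.6 and 52.3 in stimulated Compound 10 cells. The stimulated Compound 10 libraries lay below the unstimulated vehicle libraries and overlapped the unstimulated Compound 10 libraries, and the difference of Compound 10 and vehicle in stimulated cells was -2 ± 0.16 (edgeR adjusted p = 4.17e-05).

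Nop14 itself and the methyltransferase Emg1 passed in no comparison with TMM. Stimulation under vehicle gave 0.50 ± 0.18 for Nop14 (edgeR adjusted p = 0.0506), with 124 and 121 CPM in stimulated and 80.1 to 89.8 CPM in unstimulated vehicle cells. Emg1 was at 183, 176 and 245 CPM in unstimulated vehicle, 172 and 241 in unstimulated Compound 10, 172 and 194 in stimulated vehicle and 158, 172 and 247 in stimulated Compound 10 cells. Its groups overlapped throughout, its highest libraries were those of the sample numbers 25 to 29 (241 to 247 CPM), and stimulation under vehicle gave -0.13 ± 0.23 (edgeR adjusted p = 0.683) with TMM and -0.90 (edgeR adjusted p = 0.00617) with library totals. Of the other factors, the scaffold protein Utp20 passed in no comparison, and the export factor Rrp12 rose under vehicle and was lower with Compound 10. The GTPase Bms1 and the RNA acetyltransferase Nat10 were lower with Compound 10 and were not called for stimulation under vehicle. Stimulation under vehicle gave -0.30 ± 0.22 for Bms1 (edgeR adjusted p = 0.327) and 0.62 ± 0.24 for Nat10 (edgeR adjusted p = 0.0617). Nat10 was at 42.9 and 44.5 CPM in stimulated and 24.2 to 31.2 CPM in unstimulated vehicle cells. Transcripts annotated as retained introns held 44.7% to 63.4% of the counts of Nat10 in unstimulated libraries. They held 97.0% and 83.3% in stimulated vehicle and 68.1% to 91.8% in stimulated Compound 10 libraries. For Bms1 and Nat10 the difference of Compound 10 and vehicle in stimulated cells was -0.75 ± 0.22 (edgeR adjusted p = 0.029) and -0.75 ± 0.24 (edgeR adjusted p = 0.0448). Neither was called with upper-quartile factors (0.0651 and 0.0904) or with library totals (0.0646 and 0.0987), nor without either stimulated vehicle library, and Nat10 also not without the second unstimulated vehicle or any stimulated Compound 10 library (largest edgeR adjusted p = 0.176 for Bms1 and 0.192 for Nat10).

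Late maturation of the small subunit ends outside the nucleolus. All 5 of its genes rose under vehicle (median 1.71), 2 rose with Compound 10 present, and all 5 were lower with the compound in stimulated cells (median -1.21). The shares of all genes tested were 19.5%, 12.8% and 12.8%. Tsr1, a GTPase-like factor that holds the subunit inactive, was at 48.2, 46.4 and 41.7 CPM in unstimulated vehicle, 49.9 and 44.1 in unstimulated Compound 10, 261 and 267 in stimulated vehicle and 90.5, 104 and 84.7 in stimulated Compound 10 cells. The stimulated Compound 10 libraries lay between the other groups without overlap. Tsr1 rose 5.81-fold under vehicle (2.54 ± 0.15, edgeR adjusted p = 2.93e-07) and 1.98-fold with Compound 10 (0.99 ± 0.15, edgeR adjusted p = 0.000798), and with library totals the second value was 0.40 and not called (edgeR adjusted p = 0.0804).

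Nob1, the nuclease that makes the final cut of the small subunit RNA, was at 69.0, 72.3 and 69.0 CPM in unstimulated vehicle, 89.2 and 83.6 in unstimulated Compound 10, 185 and 202 in stimulated vehicle and 73.8, 75.9 and 100.5 in stimulated Compound 10 cells. Dimt1, which methylates a pair of adenosines near that end, was at 12.3, 9.69 and 9.98 CPM, 10.2 and 13.2 CPM, 33 and 36.7 CPM, and 10.9, 12.8 and 9.20 CPM in the same order. In both genes the stimulated Compound 10 libraries overlapped the unstimulated Compound 10 libraries. The difference of Compound 10 and vehicle in stimulated cells was -1.21 ± 0.16 for Nob1 (edgeR adjusted p = 0.000354). It was -1.67 ± 0.21 for Dimt1 (edgeR adjusted p = 0.000318).

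Ltv1, a factor for export of the small subunit, was the exception of the step. It was at 33.2, 30.8 and 21.9 CPM in unstimulated vehicle, 25.7 and 21.5 in unstimulated Compound 10, 102 and 102 in stimulated vehicle and 65.7, 66.6 and 72.7 in stimulated Compound 10 cells. Its rise was 3.58-fold under vehicle and 2.90-fold with Compound 10, and the 3 stimulated Compound 10 libraries lay between the other groups. The difference between the treatments in stimulated cells was -0.58 ± 0.19 (edgeR adjusted p = 0.0448) and was not called with upper-quartile factors (0.0967), with library totals (0.123), without a filter on low counts (0.0713), or without the second unstimulated vehicle library or any 1 of the 5 stimulated libraries (largest edgeR adjusted p = 0.188).

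Large subunit assembly held the largest single rises, those of Rrp1b, Ppan and Gnl3. Of its 15 genes, 13 rose under vehicle, with a median of 1.49. That was below the medians of late small subunit maturation (1.71) and box C/D snoRNPs (1.6). With Compound 10 present 3 large subunit genes rose and 1 fell, where 12.8% of all genes tested rose and 13.7% fell. In stimulated cells 13 were lower with the compound (median -1.55), where 12.8% of all genes tested were lower. Rrs1, which helps to load the particle of the small ribosomal RNA called 5S, was at 39.6, 40.4 and 39.4 CPM in unstimulated vehicle, 24.8 and 23.5 in unstimulated Compound 10, 196 and 191 in stimulated vehicle and 41.8, 53.4 and 58.7 in stimulated Compound 10 cells. The stimulated Compound 10 libraries lay just above the unstimulated vehicle libraries, while the unstimulated Compound 10 libraries lay below them. Rrs1 rose 4.87-fold under vehicle (2.28 ± 0.16, edgeR adjusted p = 1.17e-06) and 2.12-fold with Compound 10 (1.09 ± 0.17, edgeR adjusted p = 0.000802), and was lower with Compound 10 in stimulated cells by -1.92 ± 0.16 (edgeR adjusted p = 4.98e-05).

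Nop2, a methyltransferase of the large subunit RNA, was at 90.2, 86.6 and 96.7 CPM in unstimulated vehicle, 66.6 and 62.7 in unstimulated Compound 10, 201 and 215 in stimulated vehicle and 55.5, 63.2 and 71.8 in stimulated Compound 10 cells. Noc3l, a factor of early nuclear large subunit particles, was at 10.5, 8.02 and 8.09 CPM, 8.75 and 8.16 CPM, 38.8 and 39.9 CPM, and 8.07, 7.71 and 10.5 CPM in the same order. In both genes the stimulated Compound 10 libraries overlapped the unstimulated Compound 10 libraries, and stimulation with the compound gave -0.03 ± 0.15 for Nop2 and 0.06 ± 0.22 for Noc3l (edgeR adjusted p = 0.925 and 0.883). Under vehicle, stimulation raised Nop2 by 1.19 ± 0.15 (edgeR adjusted p = 8e-05, and 0.41 with adjusted p = 0.0588 by limma on log2(TPM + 1)) and Noc3l by 2.15 ± 0.21 (edgeR adjusted p = 1.37e-05).

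Rrp1b had the largest rise of the 54. It was at 5.31, 6.06 and 4.47 CPM in unstimulated vehicle, 8.17 and 7.51 in unstimulated Compound 10, 46.6 and 60.9 in stimulated vehicle and 8.29, 13.1 and 14.1 in stimulated Compound 10 cells. Stimulation raised it 10.2-fold under vehicle (3.35 ± 0.25, edgeR adjusted p = 1.89e-06), and the value with Compound 10, 0.60 ± 0.25, did not pass (edgeR adjusted p = 0.109). Transcripts annotated as retained introns held 45.6%, 30.7% and 7.93% of the Rrp1b counts in unstimulated vehicle and 88.8% and 6.84% in unstimulated Compound 10 libraries. They held 36.3% and 36.8% in stimulated vehicle and 13.1% to 18.8% in stimulated Compound 10 libraries. The largest difference between the treatments in stimulated cells was that of Nop16, at -2.36 ± 0.29 (edgeR adjusted p = 0.000258), with 132 and 134 CPM in stimulated vehicle against 15.1, 29 and 33.5 CPM in stimulated Compound 10 cells. Ppan and Gnl3 (the GTPase nucleostemin) lay between the groups at 113, 136 and 156 CPM and 191, 191 and 197 CPM in stimulated Compound 10 cells. They had 413 and 378 CPM and 325 and 342 CPM in stimulated vehicle cells, and at most 61.0 and 76.4 CPM in unstimulated cells.

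Calls differed within the PeBoW complex of Pes1, Bop1 and Wdr12, which is needed to cut the precursor of the large subunit RNA. Bop1 was at 99.3, 80.9 and 77.2 CPM in unstimulated vehicle, 107 and 74.9 in unstimulated Compound 10, 124 and 125 in stimulated vehicle and 129, 123 and 140 in stimulated Compound 10 cells, so that both stimulated groups shared 1 range. Its rise under vehicle, 0.54 ± 0.18 (edgeR adjusted p = 0.0334), turned to -0.24 with library totals and -0.23 by limma on log2(TPM + 1), and was not called without a filter on low counts (edgeR adjusted p = 0.114) or without the second or the third unstimulated or either stimulated vehicle library (largest edgeR adjusted p = 0.155). Compound 10 in stimulated cells gave 0.07 ± 0.18 for Bop1 (edgeR adjusted p = 0.835).

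Pes1, in contrast, was at 122 and 131 CPM in stimulated vehicle and 41.1, 41.4 and 44.6 CPM in stimulated Compound 10 cells, a difference of -1.58 ± 0.17 (edgeR adjusted p = 0.000139). Its fall with stimulation in Compound 10 cells, -0.53 ± 0.17 (edgeR adjusted p = 0.0418), was called in 2 of the 10 fits without a library, those without the first or the third unstimulated vehicle library (largest edgeR adjusted p in the others 0.205), and was not called with upper-quartile factors (0.0705). Wdr12 did not rise under vehicle (-0.07 ± 0.21, edgeR adjusted p = 0.832) and was lower with Compound 10 in stimulated cells by -0.66 ± 0.21 (edgeR adjusted p = 0.0398). That call was lost with upper-quartile factors (0.0887), with library totals (0.0832), and without the second unstimulated vehicle, either stimulated vehicle or the first or second stimulated Compound 10 library (largest edgeR adjusted p = 0.326). The test of a difference between Bop1 and Pes1 was not run.

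**Figure D3:**
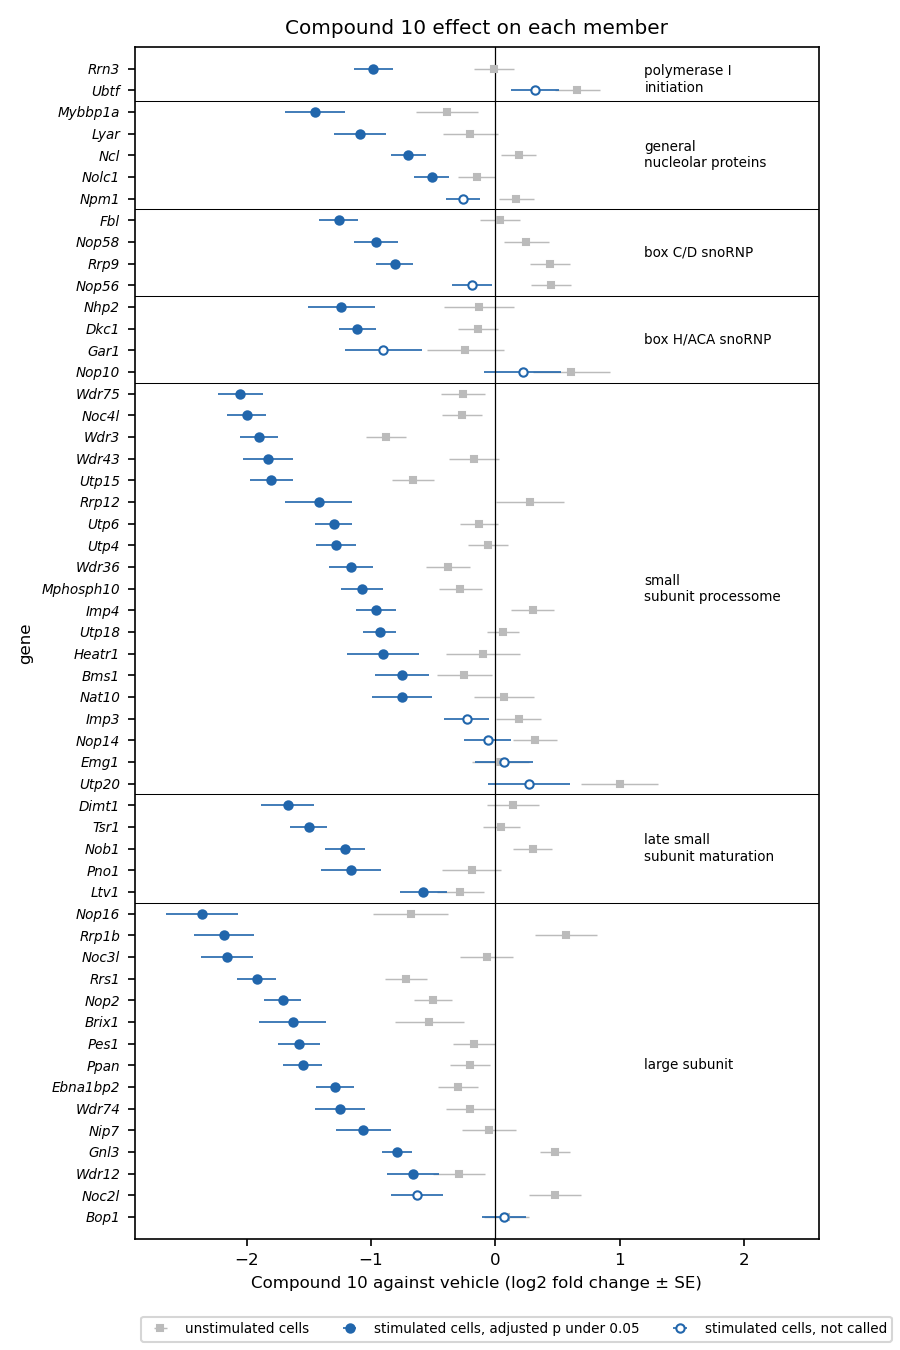
Log2 fold change ± SE of Compound 10 against vehicle for each of the 54 genes (rows, grouped by step), in stimulated cells (blue, filled where the edgeR adjusted p is under 0.05) and unstimulated cells (grey). The blue points reach -2.36 for Nop16 and are filled in 43 rows, and the grey points lie between -0.88 and 1.00.

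In unstimulated cells few of these genes differed between Compound 10 and vehicle. By edgeR's test 2 were higher, Ubtf and Gnl3 (4.65% of all genes tested were higher), and 3 were lower, Utp15, Wdr3 and Rrs1 (3.78% were lower), with a median of -0.08 against 0.00 for all genes. Gnl3 was at 54.2, 53.5 and 53.0 CPM in unstimulated vehicle and 76.4 and 72.9 in unstimulated Compound 10 cells (0.48 ± 0.12, edgeR adjusted p = 0.0376). Utp15 was at 69.9, 68.4 and 81.3 CPM and at 45.6 and 47.0 CPM in these groups (-0.66 ± 0.17, edgeR adjusted p = 0.0398). In all 5 genes the groups did not overlap, which adds nothing to calls made on the same libraries. The share of all genes tested with such an order was not counted here.

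These calls rested on few libraries. The number of the 54 called was 1 without unstimulated vehicle replicate 1, unstimulated Compound 10 replicate 1, or either stimulated vehicle replicate, 2 without unstimulated vehicle replicate 2, and 0 without unstimulated Compound 10 replicate 2, where 8 of the 54 had an unadjusted p under 0.05 by edgeR. It was 3 without unstimulated vehicle replicate 3 or without stimulated Compound 10 replicate 1 or 2. Without both unstimulated libraries of the sample numbers 25 to 29 it was 1. The largest adjusted p in these fits was 0.18 for Ubtf, 0.15 for Gnl3, 0.176 for Utp15, 0.0783 for Wdr3 and 0.165 for Rrs1.

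Whether the effect of stimulation itself differed with the compound was tested as an interaction. It was negative and called in 29 of the 54 (4.08% of all genes tested were called in that direction) and positive in none, with a median of -1.03 against 0.00 for all genes. At an unadjusted p under 0.05 the counts were 41 negative and 0 positive, and DESeq2 called 37 and 0. The largest were Rrp1b at -2.75 ± 0.35 (edgeR adjusted p = 0.00215), Noc3l at -2.09 ± 0.30 (edgeR adjusted p = 0.0031), Dimt1 at -1.81 ± 0.30 (edgeR adjusted p = 0.00691) and Wdr75 at -1.79 ± 0.25 (edgeR adjusted p = 0.0027). The count fell to 11 without the first and 12 without the second stimulated vehicle library, and 9 of the 29 were called in all 10 fits that left out a library (Wdr43, Wdr75, Noc4l, Tsr1, Nob1, Dimt1, Noc3l, Gnl3 and Rrp1b).

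By step, the interaction was called in 10 of 19 processome, 10 of 15 large subunit, 3 of 5 late small subunit, 3 of 4 box C/D, 1 of 4 box H/ACA, 1 of 5 general and 1 of 2 polymerase I genes. Differences between steps were not tested. For genes that rose in both conditions, the interaction was called for Ncl (-0.89 ± 0.20, edgeR adjusted p = 0.0233), Nop58, Tsr1, Ppan, Gnl3 and Rrs1. It was not called for Npm1 (-0.43 ± 0.19, edgeR adjusted p = 0.219), Nolc1 (-0.36 ± 0.20, edgeR adjusted p = 0.348), Nhp2 (-1.11 ± 0.39, edgeR adjusted p = 0.115) and Ltv1 (-0.30 ± 0.27, edgeR adjusted p = 0.572).

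**Figure D4:**
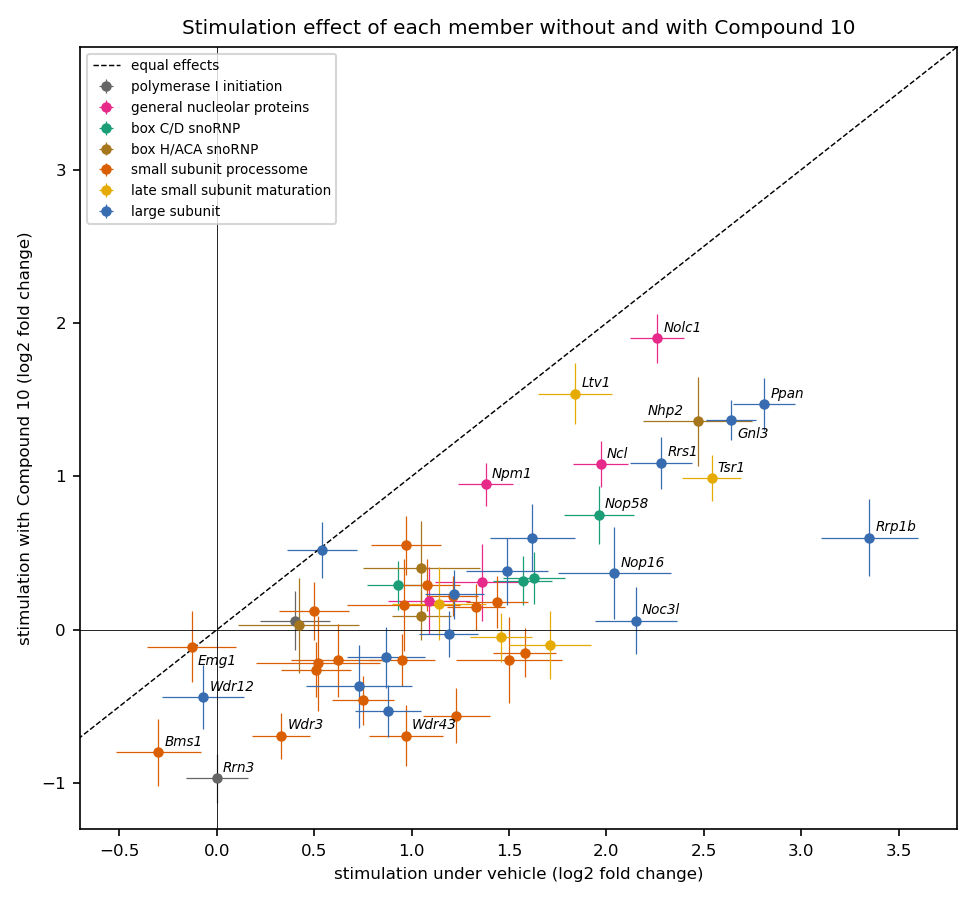
Log2 fold change ± SE of stimulation under vehicle (x axis) against that with Compound 10 (y axis) for each of the 54 genes, coloured by step, with a dashed line where both are equal. Of the 54 points, 53 lie below the line, and Rrp1b (3.35 and 0.60) and Noc3l (2.15 and 0.06) lie farthest from it.

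Levels differed widely between the genes when compared per transcript length. In unstimulated vehicle cells Nop56 (1745 ± 103 TPM, SD, n = 3) and Npm1 (1551 ± 291 TPM, n = 3) were highest, with ranges over libraries that do not separate them, then Emg1 (452 ± 25.5) and Ncl (367 ± 53.2). The lowest was Utp20 at 1.62 ± 0.774 TPM, then Noc3l at 3.93 ± 0.781 TPM. All 54 together summed to 7136, 7235 and 6452 TPM in unstimulated vehicle, 7379 and 6951 in unstimulated Compound 10, 10345 and 10553 in stimulated vehicle and 7044, 7328 and 7523 in stimulated Compound 10 cells. On this scale the stimulated vehicle libraries alone stood apart, and the other groups overlapped.

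Part of the counts lay on transcripts annotated as retained introns, which keep an intron and code for no full protein. They held 14% to 21% of the counts of the 54 genes when unstimulated and 25.1% to 27% when stimulated. Without Ncl and Nop56 the ranges were 3.39% to 5.52% and 4.90% to 7.04%. In Ncl the retained-intron share was 76.4% to 83.3% in unstimulated and 86.7% to 88.9% in stimulated libraries. In Mybbp1a it was 51.0% to 60.4% in the unstimulated libraries of the sample numbers 13 to 20 and 12.2% and 3.59% in those of 25 and 26. Counted on protein-coding transcripts alone, 44 of the 54 were called for stimulation under vehicle and 42 for Compound 10 in stimulated cells.

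Several of these genes carry snoRNA genes within their introns. Of the 54, 8 (14.8%) hold at least 1 annotated snoRNA gene on their own strand, against 1.73% of the 11732 protein-coding genes tested: Ncl, Nop56, Nop58, Dkc1, Wdr43, Tsr1, Ppan and Gnl3. Nop56 holds 5 of them, including Snord57 and Snord110, and Nop58 holds 4, including Snord11 and Snord70. All 8 rose with stimulation under vehicle (median 1.96, against 1.16 for the other 46), and 7 were lower with Compound 10 in stimulated cells (median -1.04, against -1.12). Across the 54 genes, the log2 change under vehicle and the log of the gene's length in the genome had Pearson's r of -0.27 and Spearman's rho of -0.34, and the difference with Compound 10 had -0.06 and -0.02, as a description over genes of the same 10 libraries.

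Other genes of the pathway were counted from 3 further lists of assembly factors. Of all genes tested, 19.5% rose and 19.4% fell under vehicle, and 12.8% were lower and 10.4% higher with Compound 10 in stimulated cells. Of 43 other large subunit factors tested, 28 rose and 2 fell under vehicle, and 29 were lower and 3 higher with Compound 10 in stimulated cells. Of 31 other small subunit factors tested, 20 rose and 3 fell, and 23 were lower. Of 13 other snoRNP factors, which mostly assemble the particles rather than belong to them, 4 rose and 3 fell, where 19.5% and 19.4% of all genes tested did, and 5 were lower.

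Bysl, a late small subunit factor, was at 28.5, 30.0 and 33.1 CPM in unstimulated vehicle, 19.9 and 17.4 in unstimulated Compound 10, 127 and 141 in stimulated vehicle and 24.7, 29.3 and 28.7 in stimulated Compound 10 cells. The stimulated Compound 10 libraries overlapped the unstimulated vehicle libraries, and the difference between the treatments in stimulated cells was -2.28 ± 0.16 (edgeR adjusted p = 4.17e-05). Bysl was also lower with Compound 10 in unstimulated cells (-0.71 ± 0.16, edgeR adjusted p = 0.0254). It rose with stimulation also with Compound 10 present (0.57 ± 0.16, edgeR adjusted p = 0.0256), and the interaction was called (-1.57 ± 0.22, edgeR adjusted p = 0.00319).

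Nol11, a UTP-A protein, was at 65.3, 59.7 and 67 CPM in unstimulated vehicle, 39.4 and 48.4 in unstimulated Compound 10, 126 and 113 in stimulated vehicle and 33.5, 29 and 24.6 in stimulated Compound 10 cells. Its stimulated Compound 10 libraries were the lowest of all, at -2.04 ± 0.17 from stimulated vehicle (edgeR adjusted p = 5.1e-05). The large subunit factor Rsl24d1 was at 61.1, 52.4 and 69.3 CPM, 42 and 46.1 CPM, 129 and 118 CPM, and 25.4, 35.1 and 30.2 CPM in the same order of groups, with the stimulated Compound 10 libraries again the lowest. The difference was -2.03 ± 0.18 (edgeR adjusted p = 5.52e-05).

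Nifk, another large subunit factor, was at 66.9, 60.5 and 72.2 CPM in unstimulated vehicle, 45.8 and 59.9 in unstimulated Compound 10, 313 and 312 in stimulated vehicle and 76.8, 92.6 and 87.3 in stimulated Compound 10 cells. The last group lay just above the unstimulated libraries, at -1.87 ± 0.16 from stimulated vehicle (edgeR adjusted p = 5.1e-05).

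Of the snoRNP assembly factors, the ATPase Ruvbl1 was at 63.4, 54.1 and 58.3 CPM in unstimulated vehicle, 33.5 and 29.4 in unstimulated Compound 10, 69.3 and 58 in stimulated vehicle and 23.4, 17.1 and 20.1 in stimulated Compound 10 cells. The vehicle groups overlapped, and stimulation under vehicle gave 0.12 ± 0.18 (edgeR adjusted p = 0.641), while the stimulated Compound 10 libraries were the lowest, at -1.66 ± 0.18 from stimulated vehicle (edgeR adjusted p = 0.000131). Ruvbl1 was also lower with Compound 10 in unstimulated cells (-0.90 ± 0.18, edgeR adjusted p = 0.015). Its interaction was not called (-0.76 ± 0.25, edgeR adjusted p = 0.1). Znhit6 was at 5.7, 6.57 and 4.07 CPM, 4.15 and 5.47 CPM, 16.6 and 17 CPM, and 4.64, 4.54 and 4.78 CPM in the same order. Its stimulated Compound 10 libraries lay among the unstimulated libraries, at -1.85 ± 0.27 from stimulated vehicle (edgeR adjusted p = 0.000614).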

How the data were processed

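For each library the authors deposited a transcript table with estimated counts, TPM, lengths and effective lengths, per the file headers. Cutadapt, kallisto and mm10 appear in the submitters' processing notes, with versions not given in the sources used here. Per the labels' protocols the kit was Clontech SMART-seq, which does not mark strand, so overlapping antisense genes cannot be told apart, and kallisto divides reads among similar transcripts, so genes with pseudogene copies such as Npm1 are uncertain. The TPM values the authors deposited were summed per gene to compare levels between genes, without further scaling.

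Of 109617 transcripts, 108214 matched GENCODE M21 (GRCm38); the 1403 others held 0.507% to 0.671% of the counts and were not used. Gene sums of the estimated counts were rounded to whole numbers and fitted with edgeR 4.0.16 (R 4.3.3): TMM factors (0.731 to 0.85 in stimulated, 1.2 to 1.34 in unstimulated libraries), filterByExpr by group, and 1 quasi-likelihood fit of all 10 libraries with 1 coefficient per group. Genes with a Benjamini-Hochberg adjusted p under 0.05 over all 14417 genes tested were called. The SE of a log2 fold change comes from the estimate and its F statistic. CPM use the TMM factors. All replicate pairs differed by more than sampling noise (chi-square over its degrees of freedom at least 14.8). Ribosomal RNA gene models held 1.86% to 5.1% of unstimulated and 5.49% to 11.6% of stimulated counts.

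The members and lists were chosen with earlier results of these data known. In steps of 5 or more genes, those described with every library's value are the 3 with the smallest and the 1 with the largest adjusted p for Compound 10 in stimulated cells; in smaller steps all are, and in each other list the 2 with the smallest. Further genes given values were chosen after their values were seen. Alternatives were other scaling factors, no filter, DESeq2 1.42.0, limma 3.58.1 on log2(TPM + 1), blocks, protein-coding transcripts, no ribosomal RNA models and fits without 1 library.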

Additional observations from a re-analysis of the deposited data

Results flagged for a closer look

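In 29 of the 54 genes the effect of stimulation differed with and without Compound 10 by the interaction test (edgeR adjusted p under 0.05). All 29 were negative, a direction in which 4.08% of all genes tested were called. By limma on log2(TPM + 1) 14 of the 54 were called, and Wdr3 was at -0.29 (limma adjusted p = 0.711). Ncl was not called on protein-coding transcripts alone (edgeR adjusted p = 0.0632) or with library totals (0.0554). The values below are log2 differences of the stimulation effect, with Compound 10 minus under vehicle. They were -0.97 for Rrn3 and -0.89 for Ncl. For snoRNP proteins they were -1.21 for Nop58, -1.3 for Fbl, -1.25 for Rrp9 and -0.96 for Dkc1. For processome genes they were -1.66 for Wdr43, -1.79 for Wdr75, -1.22 for Utp4, -1.14 for Utp15, -1.02 for Wdr3, -1.17 for Utp6, -0.99 for Utp18, -1.26 for Imp4, -1.73 for Noc4l and -1.70 for Rrp12. For late small subunit genes they were -1.55 for Tsr1, -1.51 for Nob1 and -1.81 for Dimt1. For large subunit genes they were -1.41 for Pes1, -1.22 for Nop2, -1.68 for Nop16, -2.09 for Noc3l, -1.35 for Ppan, -1.27 for Gnl3, -1.2 for Rrs1, -2.75 for Rrp1b, -0.99 for Ebna1bp2 and -1.05 for Wdr74. Groups of 2 and 3 libraries are too small for a test of single outlying libraries.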

How the results depend on the processing

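Of the 54 genes, stimulation called 43 under vehicle and 16 with Compound 10, the compound called 43 when stimulated and 5 when unstimulated, and the interaction called 29; this order is kept below. Library totals in place of TMM gave 31 for stimulation with Compound 10, where 6029 of all genes tested were called. They gave 3 for Compound 10 in unstimulated cells. In unstimulated cells a block on the runs of sample numbers gave 11 and limma on log2(TPM + 1) 2. The fit of only the groups compared gave 0 by edgeR (10 at an unadjusted p under 0.05, and 7 by DESeq2 with all groups). Leaving out both unstimulated libraries of the sample numbers 25 to 29, chosen after seeing the data, kept 1 unstimulated Compound 10 library. The median of the 54 in that fit was -0.08. limma on log2(TPM + 1) gave 14 for the interaction. Leaving out 1 library at a time gave 38 to 45, 14 to 20, 35 to 45, 0 to 4 and 11 to 34. The replicate block gave 46, 21, 44, 8 and 37. The labels do not say that replicate numbers mark a shared source, and deviations of libraries with the same number correlated between -0.235 and 0.27, so the numbers were not taken as pairs. For Bop1, stimulation under vehicle was -0.24 with library totals and -0.23 with limma on log2(TPM + 1). The causes were not tested. The 2 stimulated vehicle libraries limit every comparison in stimulated cells.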
